A study of Mus musculus with 16 samples.

Results

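This section describes 10 target genes of the transcription factor p53, Cdkn1a, Mdm2, Ccng1, Trp53inp1, Bax, Sesn2, Bbc3, Perp, Gdf15 and Trp53 itself, in prostate tissue of mice that carry the SV40 T antigen and of wild-type mice. The genes came from a named list. On the bead array, 7 of the 10 genes had a probe, among 16593 named genes in all. Bax, Gdf15 and Trp53 matched no probe through the annotation and were not analysed here. The 7 measured genes had 17 of the 25697 probes, and each gene is described by its brightest probe, which for Cdkn1a was ILMN_2634083 and for Ccng1 ILMN_2500276. All values are the authors' normalized probe intensities, and differences are on the log2 scale with the standard error of the limma fit.

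In TRAMP mice the probasin promoter drives the T antigen in prostate epithelium, so RNA of a whole gland mixes transgenic epithelium with stroma that does not carry active transgene. The T antigen groups were neuroendocrine carcinomas (NECa) of TRAMP mice given AGN, an extract made from roots of the plant Angelica gigas Nakai (3 arrays), or vehicle (3 arrays), and dorsal-lateral prostate (DLP) of TRAMP mice given AGN, decursin with decursinol angelate (D/DA), or vehicle, with 1 array each at 16 and at 28 weeks of age. They were set against 2 whole prostates labelled wild type, at ages between 24 and 28 weeks, and against wild-type DLP on C57BL/6 with 1 array at 16 and 1 at 28 weeks. The strain field of the 2 whole prostates names TRAMP while their genotype field names wild type, and they were used as wild type. Neither doses, the age of the carcinomas nor a background strain of the TRAMP mice is given in the sources used here. The study text counts 10 AGN and 11 D/DA mice at 16 weeks and 14 and 13 at 28 weeks, but only 1 array stands for each, and the labels do not say whether RNA was pooled or whether replicate carcinomas came from separate mice. The p-values therefore measure the spread between these samples, which may be technical.

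p53 is held at a low level by Mdm2, which is itself a p53 target and closes a negative feedback loop. On DNA damage or oncogene signals p53 accumulates and switches on genes of cell-cycle arrest, of apoptosis and of metabolic stress control. Large T antigen binds p53 and blocks its transcriptional activity while stabilising the protein, and it binds the retinoblastoma family, which releases E2F. These are background facts, and neither p53 protein nor T antigen was measured here.

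The promoters of 3 members are shown because these genes carry the results below: Cdkn1a and Ccng1 moved furthest, in opposite directions, and Mdm2 is the feedback gene. Each is the 250 bases before an annotated gene start, 5′ to 3′ on the strand of the gene, from RefSeq on GRCm38.p6. Capitals mark letters that match the p53 half-site, or a pair of CATG cores with 6 bases of any kind between them, the spacing of cores in adjacent half-sites. The coordinates are chr17:29090729-29090978 on the plus strand for Cdkn1a, chr10:117710759-117711008 on the minus strand for Mdm2 and chr11:40755287-40755536 on the minus strand for Ccng1.
Cdkn1a: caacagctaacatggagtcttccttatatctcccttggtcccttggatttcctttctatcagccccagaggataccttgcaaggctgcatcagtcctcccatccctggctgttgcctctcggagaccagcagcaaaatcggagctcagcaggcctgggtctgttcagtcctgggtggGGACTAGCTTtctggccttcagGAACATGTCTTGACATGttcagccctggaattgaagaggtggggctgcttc
Mdm2: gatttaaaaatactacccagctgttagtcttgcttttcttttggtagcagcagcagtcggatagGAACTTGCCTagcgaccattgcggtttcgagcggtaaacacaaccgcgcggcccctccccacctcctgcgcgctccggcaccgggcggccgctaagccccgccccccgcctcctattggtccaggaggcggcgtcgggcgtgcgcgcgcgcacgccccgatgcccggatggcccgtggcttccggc
Ccng1: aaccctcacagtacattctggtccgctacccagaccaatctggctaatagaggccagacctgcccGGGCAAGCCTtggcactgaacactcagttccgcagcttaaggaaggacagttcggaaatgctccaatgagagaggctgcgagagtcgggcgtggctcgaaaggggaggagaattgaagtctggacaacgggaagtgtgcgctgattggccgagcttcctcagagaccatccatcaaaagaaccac
The Cdkn1a window shown held half-site matches starting at -73 and -51 from its own annotated start, and the pair of CATG cores at -48. The window of the other annotated start of Cdkn1a, chr17:29093519-29093768 and so further downstream, was also searched and had no match. Mdm2 had a match at -186 and Ccng1 at -185. Bax and Trp53 also had one, and the windows of Sesn2, Bbc3 and Gdf15 had none, so 5 of the 12 windows of listed genes held a half-site match. Both strands were searched, and both motifs read the same on either strand. Among 32851 promoter windows of this length, 7.13% held a half-site match and 0.49% held the CATG pair, which overlaps the half-site at -51 in Cdkn1a. A pair of directly adjacent half-site matches was in 0 of the 12 windows of listed genes and in 0.00913% of all windows. Entries for 8 of the 10 genes were in the promoter table, and Trp53inp1 and Perp were not among them. A match is a run of letters and not a shown binding site.

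Cdkn1a, which encodes an inhibitor of cyclin-dependent kinases and halts the cell cycle, was higher in every carcinoma than on any array of wild-type prostate or TRAMP DLP. Its intensity was 1765, 2614 and 1881 in vehicle NECa and 1732, 903 and 1582 in AGN NECa, against 404 and 420 in the wild-type whole prostates. In vehicle NECa it rose by 2.32 ± 0.27 on the log2 scale, a 4.99-fold higher level (limma adjusted p = 4.31e-05). The 2 groups did not overlap, and the other 2 Cdkn1a probes rose as well, by 1.71 and 1.53 (limma adjusted p = 0.000122 and 0.000319). In AGN NECa the rise was 1.72 ± 0.27 (limma adjusted p = 0.000394), measured against the same 2 wild-type arrays.

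Ccng1, which encodes cyclin G1 and recruits a phosphatase to Mdm2, moved the other way. Its intensity was 684, 499 and 541 in vehicle NECa and 582, 563 and 641 in AGN NECa, against 2951 and 2480 in wild-type whole prostates. It fell by 2.25 ± 0.18 in vehicle NECa, 4.75-fold lower than wild type (limma adjusted p = 2.01e-06), and by 2.19 ± 0.18 in AGN NECa (limma adjusted p = 2.49e-06). The 6 carcinomas lay within a narrow band, far below both wild-type glands. All 3 Ccng1 probes fell, the other 2 by 0.72 and 0.53 in vehicle NECa (limma adjusted p = 0.000881 and 0.00469).

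Mdm2, the ubiquitin ligase that marks p53 for destruction, had an intensity of 1331, 1596 and 1535 in vehicle NECa and 1462, 1415 and 1331 in AGN NECa, against 2108 and 2240 in wild-type whole prostates. It was lower by 0.55 ± 0.15 in vehicle NECa, 1.47-fold (limma adjusted p = 0.0170), and by 0.63 ± 0.15 in AGN NECa (limma adjusted p = 0.00728). This call rested on 1 probe: the second, also well above the array median, differed by 0.04 (limma adjusted p = 0.902), and the dimmest, below the array median on 16 of 16 arrays, by 0.02 (limma adjusted p = 0.895). The call in vehicle NECa was also lost with quantile scaling (-0.29, limma adjusted p = 0.167), with the mean of the 3 probes (-0.16, limma adjusted p = 0.406) and without wild-type whole prostate 1 or 2 (limma adjusted p = 0.0670 and 0.120). In AGN NECa it was lost with quantile scaling, the probe mean and without wild-type whole prostate 2 (limma adjusted p = 0.0879, 0.326 and 0.0654).

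Among the pro-apoptotic members, Bbc3, which encodes the BH3-only protein Puma, was higher in NECa. Its intensity was 508, 526 and 474 in vehicle NECa and 413, 531 and 573 in AGN NECa, against 320 and 310 in wild-type whole prostates. The rise was 0.67 ± 0.16 in vehicle NECa, 1.60-fold (limma adjusted p = 0.00625), and 0.67 ± 0.16 in AGN NECa (limma adjusted p = 0.00605). Its other 2 probes, near the array median, differed by -0.02 and -0.01 in vehicle NECa, and with the mean of the 3 probes neither comparison passed (adjusted p = 0.148 and 0.0953). Perp, a junction protein of epithelia that promotes apoptosis, had 1 probe, below the array median on 15 of 16 arrays. It lay between 138 and 160 in the 6 NECa, against 147 and 170 in wild type, and no difference passed at this signal (-0.10 in vehicle NECa, limma adjusted p = 0.434). After normexp background correction, which gave a median of -0.20 over all probes in vehicle NECa, Perp was called lower there (-0.40, limma adjusted p = 0.0193) and in AGN NECa (-0.35, limma adjusted p = 0.0317).

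Sesn2 and Trp53inp1 belong to the metabolic and autophagy arm of the response. Sesn2, a stress-induced inhibitor of mTORC1, was 149, 178 and 170 in vehicle NECa, against 205 and 198 in wild-type whole prostates. It was lower by 0.29 ± 0.10 (limma adjusted p = 0.0460), near the threshold, and the call was lost in 6 of 8 leave-one-out fits, namely without either wild-type whole prostate, vehicle NECa 1 or 3, or AGN NECa 1 or 3 (highest adjusted p = 0.181), and in others given with the limits. Trp53inp1, which supports p53 phosphorylation and autophagy, was 463, 546 and 410 in vehicle NECa, against 547 and 651 in wild-type whole prostates. That difference of -0.35 ± 0.17 did not pass (limma adjusted p = 0.183). In AGN NECa, Sesn2 was 172, 155 and 179 and Trp53inp1 was 414, 383 and 501, each value below those of the same wild-type arrays. Neither passed there, Sesn2 with -0.26 (limma adjusted p = 0.0644) and Trp53inp1 with -0.47 (limma adjusted p = 0.0595). Both were called after normexp correction (limma adjusted p = 0.00197 for Sesn2 and 0.0322 for Trp53inp1) and among probes above the median level (0.0377 and 0.0422). Sesn2 was also called with quantile scaling, the mean of its probes and without vehicle NECa 1 (limma adjusted p = 0.0373, 0.0464 and 0.0292), and Trp53inp1 without AGN NECa 3 (limma adjusted p = 0.0325).

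In vehicle NECa, 5 of the 7 measured members were called, 2 higher and 3 lower, where 28.7% of all probes were called, 12.4% higher and 16.3% lower. In AGN NECa, 4 were called, 2 higher and 2 lower, where 31% of all probes were called, 14.4% higher and 16.5% lower. The members' median difference in vehicle NECa was -0.29, against -0.00 over all probes. The latter includes dim and secondary probes, while each member is read from its brightest probe, so the 2 medians are not of like sets. Among main probes of named genes 12.8% were higher and 18.8% lower in vehicle NECa. The members did not move as a group: Cdkn1a and Bbc3 were on one side, Ccng1 and Mdm2 on the other.

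**Figure D1:**
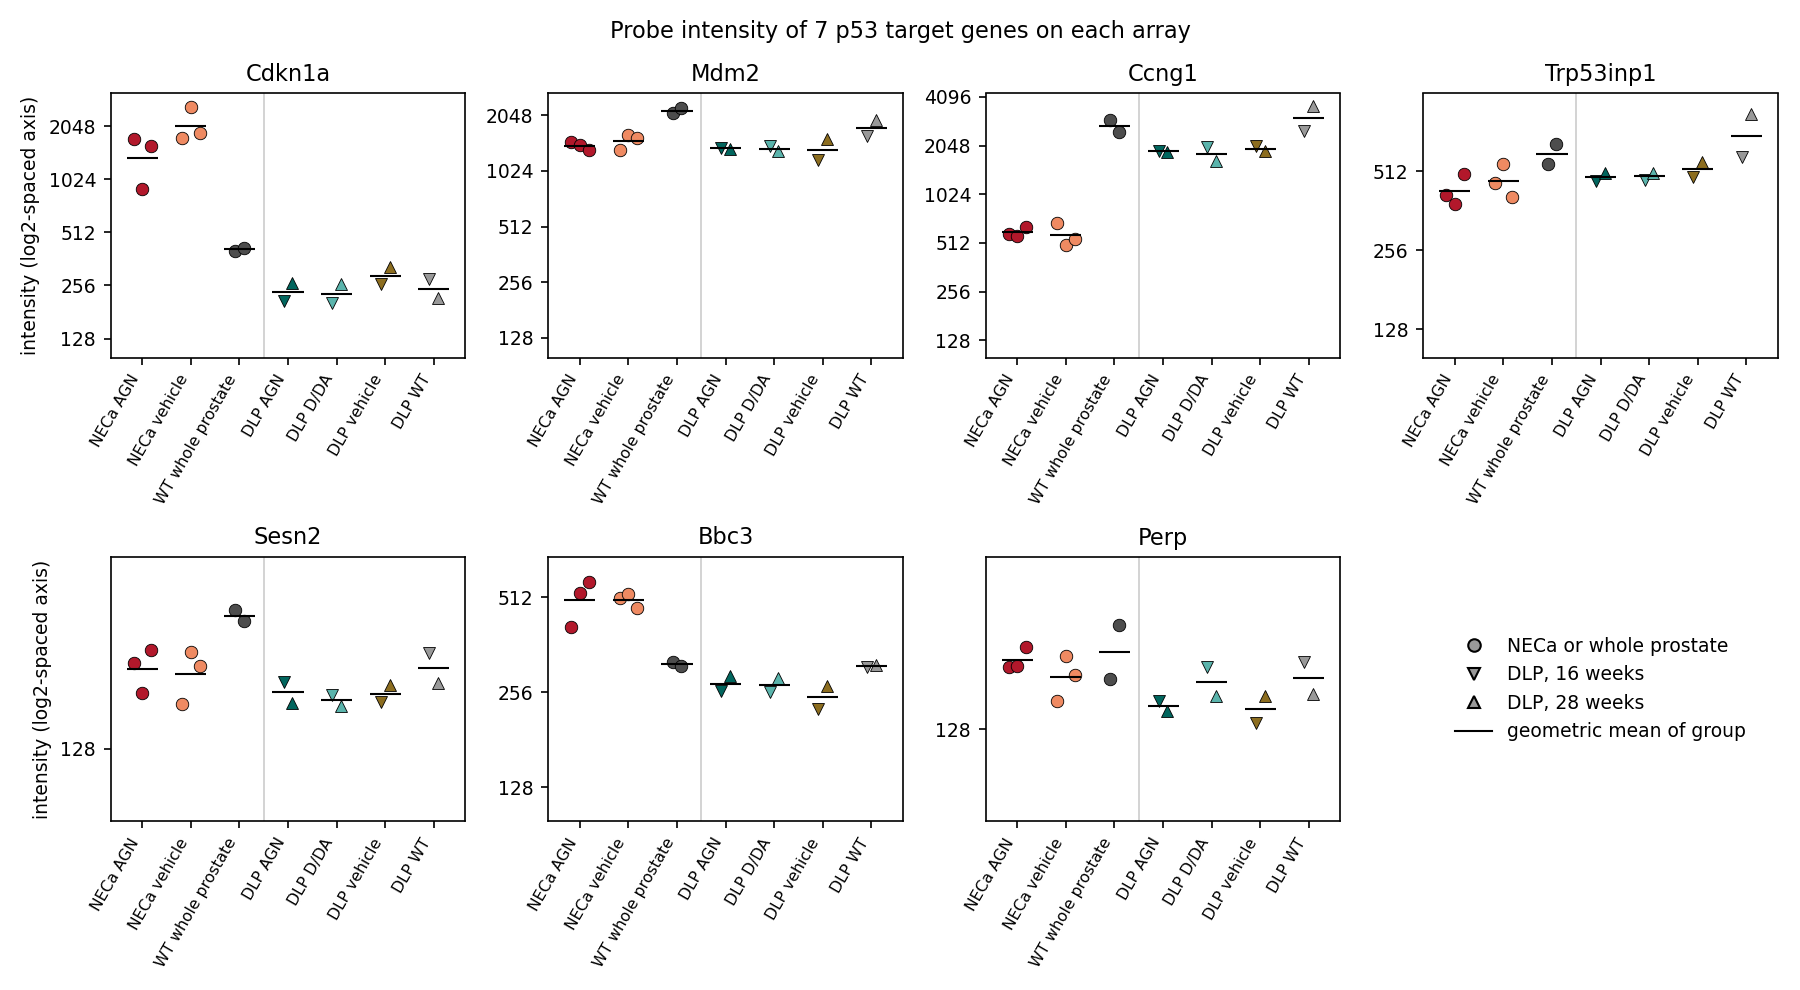
Probe intensity of the 7 measured genes on each of the 16 arrays (log2-spaced vertical axis), by group, with the geometric mean of each group as a bar. Cdkn1a is between 903 and 2614 in the 6 NECa and between 203 and 420 in the other 10 arrays, while Ccng1 is between 499 and 684 in NECa and at least 1641 elsewhere.

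The tissue itself differed sharply between these groups, which matters because in bulk RNA fewer cells of a type and less RNA per cell cannot be told apart. Of 9 measured luminal epithelial markers, 8 fell in vehicle NECa, and their summed intensity was 3698 to 5750 in the 6 NECa, against 24988 to 27761 in wild-type whole prostates. Prostate secretory genes summed to 1027 to 7198 in NECa, against 203707 to 237534, with Pbsn, Sbp and Tgm4 below the array median on all 6 NECa arrays. Neuroendocrine markers summed to 15707 to 21236 in NECa, against 1654 to 1745, and 7 of 8 rose. In vehicle NECa 12.8% of main probes of named genes rose and 18.8% fell. Smooth muscle markers summed to 2774 to 33648 in NECa, against 73607 to 79985. Seminal vesicle genes summed to 1033 to 1307 in NECa, against 155912 to 187402 in wild-type whole prostates. Of 7 measured, 6 fell in vehicle NECa. Skeletal muscle markers summed to 1359 to 2060 in NECa, against 11728 and 47814 in the 2 wild-type whole prostates. Vehicle NECa 1 gave the smooth muscle sum of 33648, against at most 11638 in the other NECa. It also stood apart by its fibroblast and macrophage genes, and AGN NECa 2 by its secretory genes. Without these 2 arrays, Cdkn1a, Ccng1, Mdm2 and Bbc3 kept their calls in both comparisons with wild type. The part of cell composition in the members' differences was not tested.

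The wider p53 program was read from 36 measured targets outside the 7 members. In vehicle NECa, 8 of the 36 rose and 8 fell, where 12.8% of main probes of named genes rose and 18.8% fell, and the list's median was -0.07. The 3 largest changes were falls: Dcxr, a carbonyl reductase of xylulose metabolism, by 4.50 ± 0.23, Ephx1, a xenobiotic epoxide hydrolase, by 3.32 ± 0.26, and Fas, the death receptor, by 2.13 ± 0.14. Fas was 199, 159 and 150 in vehicle NECa, against 761 and 713 in wild-type whole prostates. Further falls included Phlda3, an Akt inhibitor, and Shisa5, an apoptosis gene of the endoplasmic reticulum. The largest rises, named after their values were seen, were Ppm1d by 2.00 ± 0.20, Plk3 by 1.35 ± 0.18 and Pidd1 by 1.06 ± 0.13. Ppm1d encodes the phosphatase Wip1, which switches p53 signalling off, and its intensity was 1366, 2162 and 1969 in vehicle NECa, against 480 and 420 in wild type. The list thus split between both directions, as the members did.

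**Figure D2:**
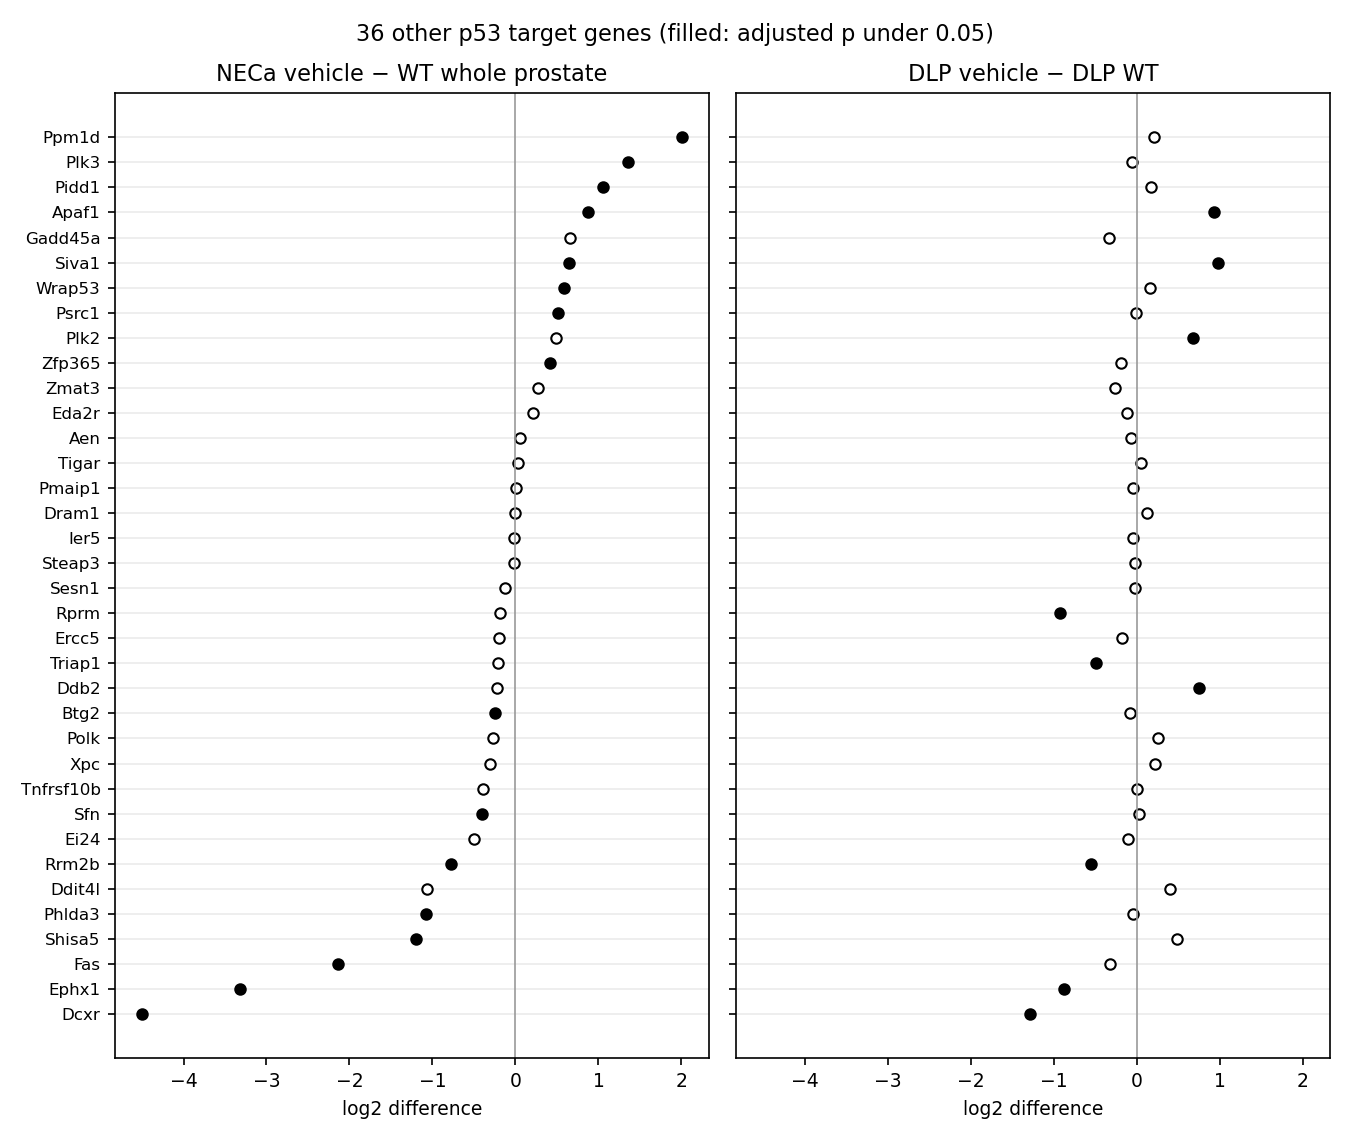
Log2 difference of 36 other p53 target genes in vehicle NECa against wild-type whole prostate (left) and in vehicle TRAMP DLP against wild-type DLP (right), 1 point per gene, filled where the limma adjusted p was under 0.05. In NECa 8 genes are filled above 0 and 8 below, from 2.00 for Ppm1d to -4.50 for Dcxr, and in DLP 4 are above and 5 below.

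Of 17 measured regulators of p53, 3 rose and 4 fell in vehicle NECa, near the 12.8% and 18.8% of main probes of named genes that did so. Cdkn2a, whose locus encodes the Mdm2 antagonist Arf and the kinase inhibitor Ink4a, rose by 2.75 ± 0.19 (limma adjusted p = 6.5e-07). Its intensity was 868, 1033 and 985 in vehicle NECa, against 141 and 143 in wild type, where it was below the array median. Trp63, the p53 relative of basal epithelium, fell by 2.01 ± 0.19, and Ppp1r13b, which encodes the p53-binding protein ASPP1, fell by 1.37 ± 0.14. Among 8 measured partners of T antigen, Rb1 rose by 1.19 ± 0.18 and Rbl1 by 0.95 ± 0.16, both pocket proteins that restrain E2F, Cul7, a cullin of ubiquitin ligases, rose by 0.54 ± 0.16, and Fbxw7 fell by 0.64 ± 0.16.

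Cdkn1a was not alone among cell-cycle inhibitors. All of the other CDK inhibitor genes except Cdkn2b were called higher in vehicle NECa, 5 of 6: Cdkn2d by 2.79 ± 0.18, Cdkn2a by 2.75 ± 0.19, Cdkn2c by 2.56 ± 0.19, Cdkn1c by 2.24 ± 0.17 and Cdkn1b by 1.46 ± 0.19. Cdkn1c encodes the kinase inhibitor of the same Cip/Kip family as Cdkn1a. In the same tissue, 18 of 21 measured E2F and DREAM targets, genes of DNA replication and mitosis, rose with a median of 2.91 and none fell. Both counts stand against 12.8% of main probes of named genes that rose in this comparison and 18.8% that fell. Inhibitor and proliferation transcripts were thus high together.

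**Figure D3:**
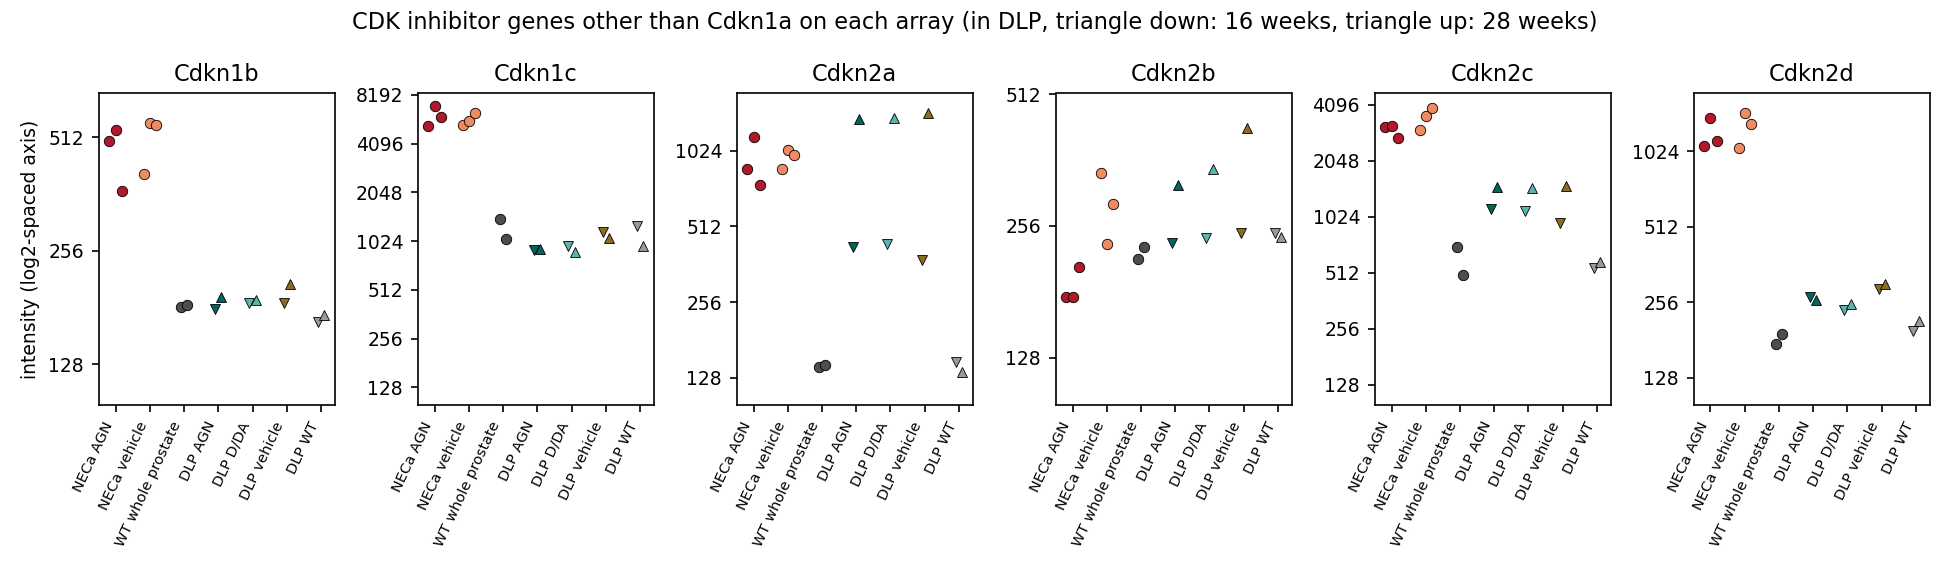
Intensity of the 6 CDK inhibitor genes other than Cdkn1a on each array (log2-spaced vertical axes), by group. Cdkn1b, Cdkn1c, Cdkn2c and Cdkn2d are higher in the 6 NECa than on any other array, while Cdkn2a is between 377 and 1439 in TRAMP DLP and at most 147 in wild-type tissue.

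Death-regulating genes around Bbc3 went in both directions. The counts in this paragraph stand against 12.8% of main probes of named genes that rose and 18.8% that fell, and those of the BCL2 family lie near these shares. Of 13 measured BCL2 family genes, Bok, a pro-apoptotic effector, rose by 1.88 ± 0.17 in vehicle NECa, and 4 fell, led by Bcl2l2, which encodes the survival protein Bcl-w, by 1.56 ± 0.17 and Bik, a BH3-only gene, by 1.00 ± 0.22. Around Sesn2, which the integrated stress response also induces, 6 of 15 genes of that response fell and 1 rose. The amino acid transporter Slc7a3 rose by 1.88 ± 0.26, while asparagine synthetase, Asns, fell by 1.73 ± 0.28 and Ddit4, an mTORC1 inhibitor, by 1.57 ± 0.33. Beside Perp, 4 of 6 desmosome and junction genes fell, with Pkp2 down by 2.24 ± 0.11, Pkp3 2.82-fold lower and Ppl by 1.11 ± 0.09. These 3 encode plaque proteins that tie desmosomes to keratin filaments.

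For TRAMP DLP the question was whether the members already differed from wild-type DLP. None of the 7 passed in vehicle DLP (limma), where 7.5% of all probes were called. An unadjusted p under 0.05 was found for 4 of the 7 members and for 27.7% of all probes. Ccng1 was 2031 at 16 weeks and 1895 at 28 weeks in vehicle TRAMP DLP, against 2533 and 3585 in wild-type DLP, a difference of -0.62 ± 0.18 (limma adjusted p = 0.0754). Trp53inp1 was 487 and 557 in vehicle TRAMP DLP, against 580 and 843 in wild-type DLP, a difference of -0.43 ± 0.13 (limma adjusted p = 0.0838). By their brightest probes both genes were lower at each age, by more at 28 weeks, when the wild-type array was at its highest. The dimmest Ccng1 probe had the opposite order, with -0.38 at 16 weeks and -0.12 at 28 weeks.

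Mdm2 was 1173 and 1521 in vehicle TRAMP DLP at 16 and 28 weeks, against 1583 and 1921 in wild-type DLP (-0.38 ± 0.15, limma adjusted p = 0.136). Bbc3 was 227 and 269 in vehicle TRAMP DLP, against 309 and 313 in wild-type DLP (-0.33 ± 0.09, limma adjusted p = 0.0588), and its 3 probes all lay below wild type. Bbc3 was called under 2 of the alternative fits, without an intensity trend (limma adjusted p = 0.0408) and among probes above the median (limma adjusted p = 0.0492), and without wild-type DLP at 28 weeks (limma adjusted p = 0.0325). In all, 6 of the 7 members lay below wild type without overlap, and 42.7% of all probes did so too. Without wild-type DLP at 16 weeks, Ccng1, Trp53inp1 and Cdkn1a passed, with differences of -0.94, -0.63 and 0.59 (adjusted p = 0.00297, 0.00829 and 0.00325).

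Cdkn1a did not show in DLP the rise it showed in carcinomas. It was 261 at 16 weeks and 324 at 28 weeks in vehicle TRAMP DLP, against 277 and 217 in wild-type DLP. The difference was 0.24 ± 0.16 (limma adjusted p = 0.353), and its sign differed between the ages, -0.09 at 16 weeks and 0.58 at 28 weeks. Sesn2 was 150 and 159 in vehicle TRAMP DLP, against 177 and 160 in wild-type DLP, and Perp was 130 and 140, against 153 and 141. Both lay near the array median, and neither passed.

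When all 6 TRAMP DLP arrays, of vehicle, AGN and D/DA mice, were set against the 2 wild-type DLP arrays, a comparison added after the data were seen, 2 members passed. Ccng1 was lower by 0.68 ± 0.15 (limma adjusted p = 0.0201) and Trp53inp1 by 0.49 ± 0.11 (limma adjusted p = 0.0194), where 12.5% of all probes were called and 7.9% were lower. Ccng1 lay between 1641 and 2031 on the 6 TRAMP arrays, below both wild-type arrays, and Trp53inp1 between 470 and 557. Mdm2 (-0.37, adjusted p = 0.0781) and Bbc3 (-0.24, adjusted p = 0.0662) did not pass, and Cdkn1a differed by 0.03 (95% interval -0.27 to 0.33).

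Of the 36 other p53 targets, 4 rose and 5 fell in vehicle TRAMP DLP, where 3.41% of main probes of named genes rose and 5.15% fell. Dcxr fell by 1.28 ± 0.17, Siva1 rose by 0.98 ± 0.12 and Apaf1 rose by 0.93 ± 0.12, the last being the scaffold of the apoptosome. Of these called genes, Apaf1 and Siva1 were also higher and Dcxr, Ephx1 and Rrm2b also lower in vehicle NECa, against a separate pair of wild-type arrays. The rest of the 4 and the 5 are not set against NECa here. The named genes therefore do not show whether the list moved alike in both tissues. How many of all genes were called alike in both comparisons was not counted. Cdkn2a was 377 and 1439 in vehicle TRAMP DLP at 16 and 28 weeks, against 147 and 135 in wild-type DLP, a rise of 2.38 ± 0.41 (limma adjusted p = 0.0109). Without the vehicle array at 28 weeks its call was lost (limma adjusted p = 0.109), as were those of Siva1, Dcxr, Ephx1, Rrm2b, Cdkn2c and Cdkn2d, while Apaf1 and Rbl1 kept theirs. Cdkn2c, Cdkn2d and the T antigen partner Rbl1 rose as well, by 1.08 ± 0.14, 0.52 ± 0.08 and 1.03 ± 0.11. In the same arrays 15 of 21 E2F and DREAM targets rose with a median of 1.16.

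Cell markers also moved in DLP. Luminal markers summed to 25252 to 30044 on the 6 TRAMP DLP arrays, against 22176 to 23331 in wild-type DLP. Smooth muscle markers summed to 37257 to 51033, against 61163 to 70416, and secretory genes to 65800 to 114146, against 167404 to 194104. Adipocyte markers summed to 2957 and 8219 in vehicle TRAMP DLP at 16 and 28 weeks, against 1079 and 2369 in wild-type DLP, and 4 of 7 rose with a list median of 1.19, although the adipocyte gene Fabp4 was below the array median on all 8 DLP arrays. Among main probes of named genes 3.41% rose in vehicle TRAMP DLP. Skeletal muscle genes varied within groups, from 10047 to 37214 in TRAMP DLP and from 7731 to 41146 in wild-type DLP. Seminal vesicle genes summed to 78611 to 128631 in TRAMP DLP, against 130801 to 154466 in wild-type DLP. The part of all these cell types in the members' differences was not tested.

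A further test asked whether the difference from wild type was alike in carcinomas and DLP. It took the difference of vehicle NECa from wild-type whole prostate minus that of vehicle DLP from wild-type DLP. Tissue, dissection and age are not matched between these pairs and cannot be told apart from the transgene. Of the 7 members, 3 differed, 2 higher and 1 lower, where 19.6% of all probes were called, 10% higher and 9.6% lower. Cdkn1a differed by 2.07 ± 0.37 (limma adjusted p = 0.000883), and so did its other 2 probes (1.54 and 1.41, limma adjusted p = 0.00238 and 0.00326). Ccng1 differed by -1.63 ± 0.26 (limma adjusted p = 0.00033), but its other 2 probes did not pass (-0.46 and -0.28, adjusted p = 0.0940 and 0.246). Bbc3 differed by 1.01 ± 0.20 (limma adjusted p = 0.00183), having been higher than wild type in NECa and below it in DLP, while its 2 dimmer probes did not pass. Mdm2, Trp53inp1, Sesn2 and Perp did not pass. Their 95% intervals were -0.62 to 0.29 for Mdm2, -0.47 to 0.63 for Trp53inp1, -0.43 to 0.11 for Sesn2 and -0.20 to 0.25 for Perp.

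**Figure D4:**
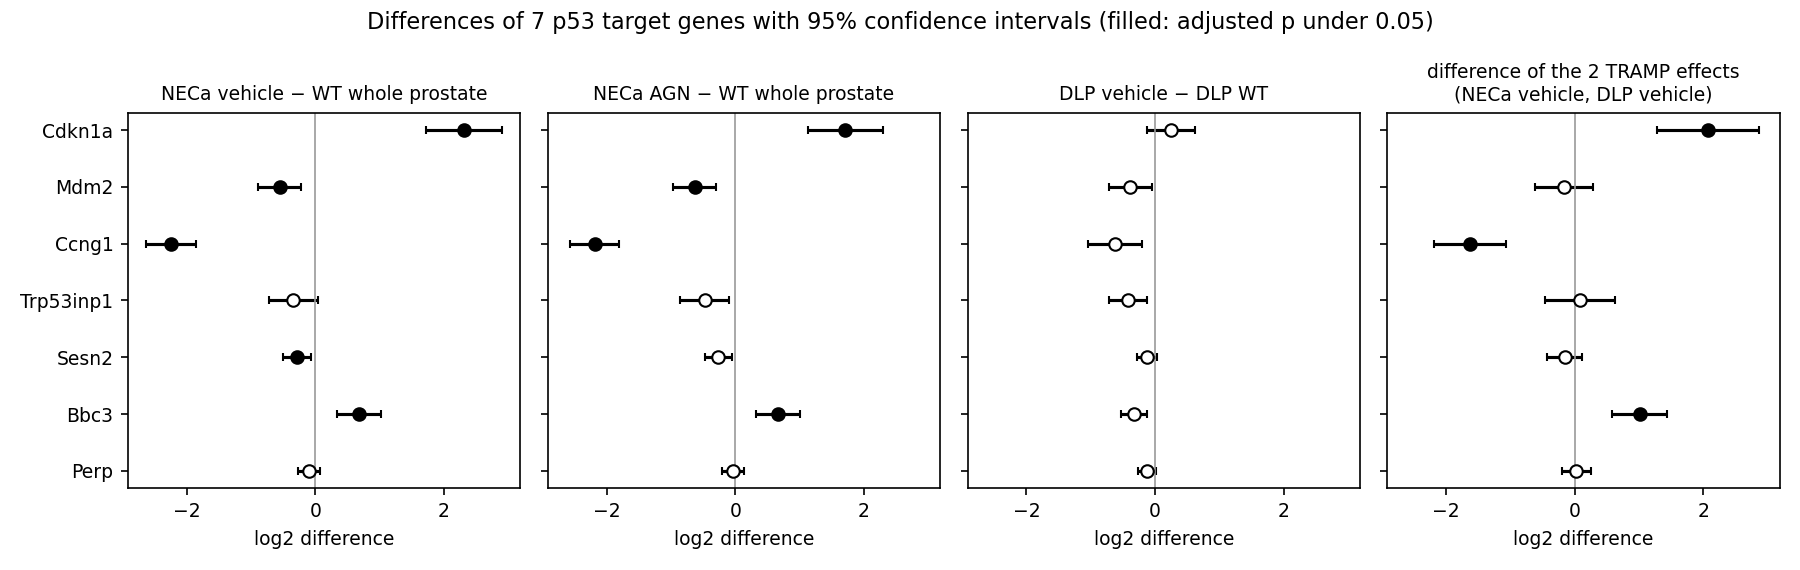
Log2 differences of the 7 measured genes with 95% confidence intervals in 4 comparisons: vehicle NECa and AGN NECa against wild-type whole prostate, vehicle TRAMP DLP against wild-type DLP, and the difference between the TRAMP effects in vehicle NECa and vehicle DLP. Filled points had a limma adjusted p under 0.05: Cdkn1a and Bbc3 are filled above 0 and Ccng1 below 0 in both NECa panels and in the last panel, Mdm2 is filled below 0 in both NECa panels and Sesn2 in that of vehicle NECa, and no point is filled for DLP.

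Set directly against vehicle TRAMP DLP, vehicle NECa had 2 of the 7 members higher and 1 lower, where 46.6% of all probes were called, 31.3% higher and 15.3% lower. Cdkn1a was higher by 2.82 ± 0.25, 7.07-fold (limma adjusted p = 4.11e-07), and Bbc3 by 1.03 ± 0.13 (limma adjusted p = 2.00e-05), while Ccng1 was lower by 1.79 ± 0.17 (limma adjusted p = 1.13e-06). Mdm2 differed by 0.15 ± 0.14 and did not pass, although its second probe was higher by 0.40 (limma adjusted p = 0.0351). The second Trp53inp1 probe was lower by 0.36 (limma adjusted p = 0.00877), where the brighter probe differed by -0.15 and did not pass. The tissue differed between these groups, carcinomas in one and dissected lobes in the other, and so did the set of arrays. Neither can be told apart from the group. Over all called probes the share that was higher was 67.1%, and it was 54% with quantile scaling and 42.2% after normexp background correction, so the direction of the background is not stable. The median over all probes was 0.12 here and 0.01 with quantile scaling.

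With age, Cdkn1a rose in TRAMP DLP. It was 208 in AGN, 203 in D/DA and 261 in vehicle mice at 16 weeks, and 265, 260 and 324 in the same order at 28 weeks. The later level exceeded the earlier in each of the 3 treatments, a mean rise of 0.34 ± 0.06 (limma adjusted p = 0.0249), and it was the 1 member called where 1.61% of all probes were. The 16-week vehicle array lay slightly above the 28-week D/DA array. The call was lost without any one of the AGN or D/DA arrays (limma adjusted p between 0.0625 and 0.141) and with the mean of the 3 probes (limma adjusted p = 0.0697), and the 2 dimmer probes rose by 0.30 and 0.20 without passing. Wild-type DLP, with 217 at 28 weeks and 277 at 16 weeks, ran the other way on 1 array each, which was not tested. Cell markers changed with age in the same 6 arrays: 7 of 8 skeletal muscle markers fell (median -1.21), 4 of 7 secretory genes fell (median -0.80), 4 of 7 adipocyte markers rose (median 0.89) and 2 of 6 macrophage markers rose (median 0.33). Their part in the rise of Cdkn1a was not tested.

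The other members changed less with age in TRAMP DLP. Bbc3 was higher at 28 weeks in each treatment, by 0.18 ± 0.06 (limma adjusted p = 0.254), and Trp53inp1 by 0.13 ± 0.08 (limma adjusted p = 0.544). Ccng1 was lower in each treatment, by 0.14 ± 0.10 (limma adjusted p = 0.622), but its other 2 probes differed by 0.09 and 0.07 in the opposite direction and did not pass either. Among the CDK inhibitors, Cdkn2a rose by 1.76 ± 0.09 (limma adjusted p = 3.1e-05), Cdkn2b by 0.59 ± 0.08 and Cdkn2c by 0.48 ± 0.09. Cdkn2a was 423 in AGN, 437 in D/DA and 377 in vehicle mice at 16 weeks, and 1365, 1379 and 1439 at 28 weeks. Of the 36 other p53 targets, Pidd1 rose by 0.24 ± 0.05 and Dcxr fell by 0.58 ± 0.12, where 0.838% of main probes of named genes rose and 1.05% fell.

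**Figure D5:**
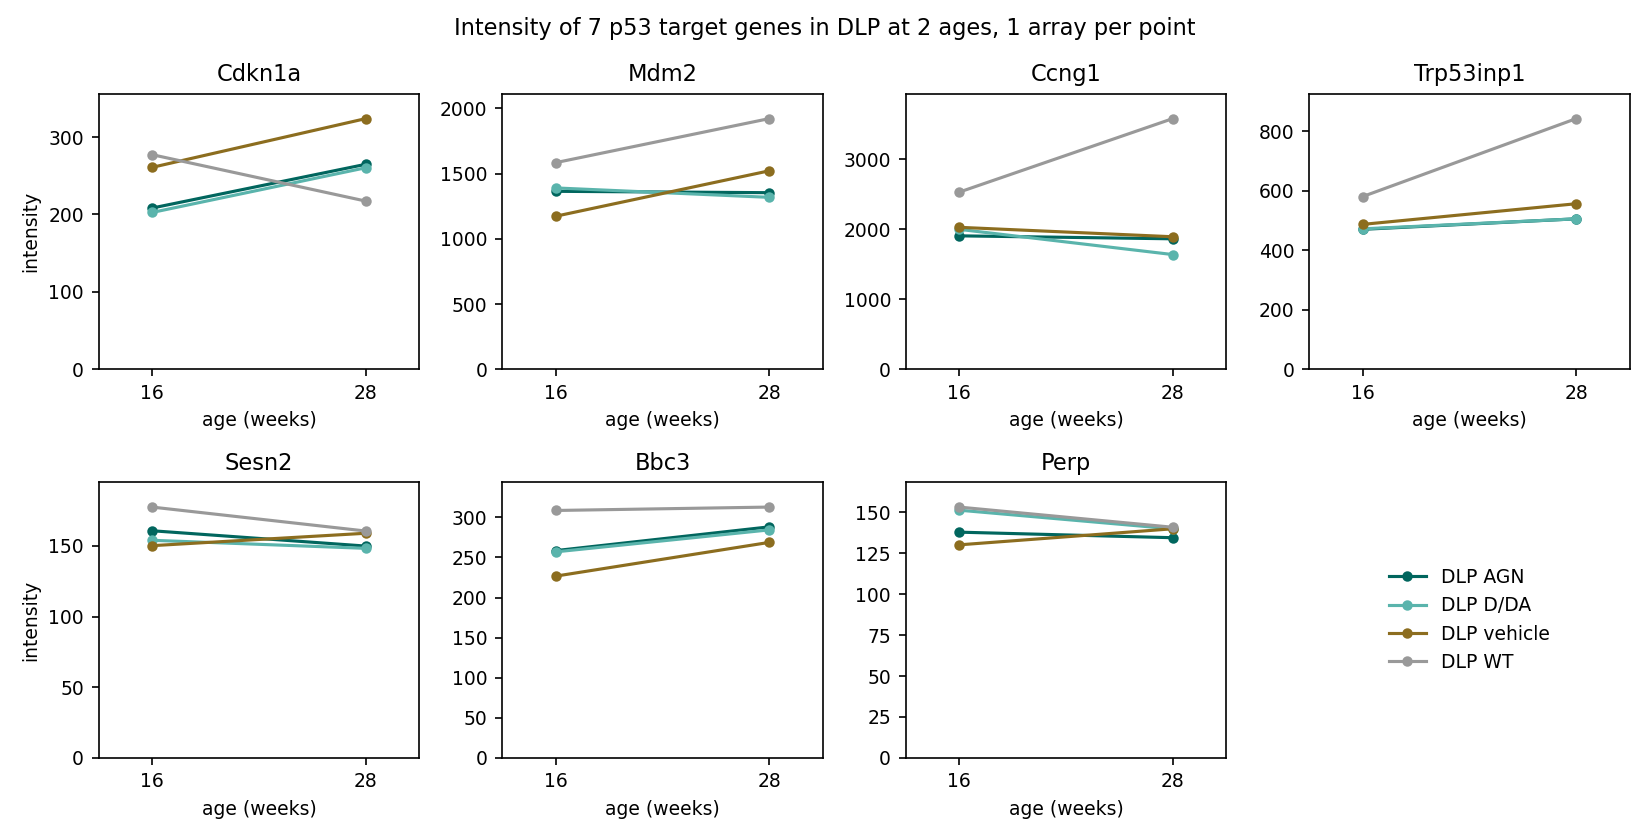
Intensity of the 7 measured genes in DLP at 16 and 28 weeks, 1 array per point, for AGN, D/DA and vehicle TRAMP mice and wild-type mice. Ccng1 and Trp53inp1 are below wild type in all 3 TRAMP groups at both ages, and Cdkn1a is higher at 28 than at 16 weeks in each TRAMP group and lower in wild type.

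The treatments moved no member past the threshold. In NECa, AGN against vehicle had 0 of 7 members called (limma), 1 with an unadjusted p under 0.05, where 0.0389% of all probes were called and 6.14% had an unadjusted p under 0.05. That member was Cdkn1a, whose 3 AGN values all lay below the 3 vehicle values, as 3.94% of all probes did (-0.60 ± 0.25, 95% interval -1.15 to -0.05, limma adjusted p = 0.753). The lowest, 903, was AGN NECa 2, the carcinoma with the highest secretory sum, and without it the difference was -0.31. The intervals of the other members were -0.40 to 0.24 for Mdm2, -0.28 to 0.40 for Ccng1, -0.47 to 0.21 for Trp53inp1, -0.17 to 0.22 for Sesn2, -0.34 to 0.33 for Bbc3 and -0.07 to 0.20 for Perp.

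In DLP, neither AGN nor D/DA against vehicle had a called member or probe (limma, 0% of all probes). An unadjusted p under 0.05 was found for 4.55% and 8.39% of all probes, and for 0 members by their brightest probes. The second Cdkn1a probe had one, with -0.36 under AGN and -0.29 under D/DA (limma unadjusted p = 0.0192 and 0.0477, adjusted p = 0.935 and 0.592). The third Cdkn1a probe did not (-0.16 and -0.15). Both treatments were set against the same vehicle arrays. Cdkn1a under D/DA lay below vehicle without overlap, as 8.23% of all probes did. Cdkn1a was below vehicle in AGN mice by 0.32 at 16 weeks and 0.29 at 28 weeks, and in D/DA mice by 0.36 and 0.31, but the fitted differences of -0.31 and -0.34 did not pass (limma adjusted p = 0.935 and 0.611). Adipocyte markers had the same order, with sums of 1816 in AGN and 1433 in D/DA mice, against 2957 in vehicle mice, at 16 weeks, and 3347 and 3300, against 8219, at 28 weeks. Macrophage markers summed to 2087 and 2048, against 2292, at 16 weeks, and to 2842 and 2736, against 3744, at 28 weeks. Sums of fibroblast, smooth muscle and endothelial markers also lay below vehicle in both treatments at both ages. Those of luminal, secretory and skeletal muscle markers did not do so throughout. The part of these cells in the Cdkn1a values was not tested. Bbc3 was above vehicle in both treatments at both ages, by 0.15 and 0.13 on average (limma adjusted p = 0.935 and 0.686). With 3 residual degrees of freedom, the 95% intervals for Cdkn1a ran from -0.68 to 0.06 under AGN and from -0.71 to 0.03 under D/DA.

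For the members whose level spanned at least 1 log2 unit, the genes of nearest pattern over the 16 arrays were found by the root mean square difference of centred log2 values among 16592 other genes. Cdkn1a, with an SD of 1.32 over the arrays, lay nearest Ahi1 (0.27), Pnma2 (0.31) and Tcf4 (0.31). Ccng1, with an SD of 0.98, lay nearest Hint3, Itprid2 and Retsat, each at 0.18. Bbc3 lay nearest Clns1a, Tgfbr1 and Epb41l5 (0.12 to 0.13) and Trp53inp1 nearest Ptger3, Ankrd22 and Arntl (0.13 to 0.14). None of the named neighbours was on any of the gene lists used here. The arrays fall into groups, so such likeness mainly restates which tissues a gene was high in.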

How the data were processed

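RNA was measured on 16 Illumina bead arrays with biotinylated cRNA, per the labels' protocols. The authors deposited linear, normalized probe intensity values, and the submitters' processing notes name lumi, without a version. The normalization and background steps are not given in the sources used here. Array medians lay between 151 and 166 and lowest values between 113 and 139, so background remains and differences of dim genes are compressed. A second table, before normalization, was not used, because its 32 per-sample columns match no sample label. The number of arrays limits the precision.

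The log2 of each intensity entered linear models (R 4.3.3, limma 3.58.1, lmFit and eBayes with an intensity trend). Tests were two-sided, with p-values adjusted by Benjamini-Hochberg across the 25697 probes and a threshold of 0.05. The 6 NECa and 2 whole prostates shared a fit for both comparisons with wild type, AGN against vehicle was fitted on the 6 NECa alone, the 8 DLP arrays with age as a term, and the age comparison on the 6 TRAMP DLP arrays with treatment as a term. Comparisons across tissues used all 16 arrays. The code was tested on simulated data. The platform annotation named 23978 probes with 1 symbol, and 1719 probes stayed unnamed. A gene was read from its probe of highest mean. Members were always named, list genes were named if among the 3 largest called differences of their list or as stated, and nearest-pattern genes by the measure given. The members and lists were chosen with earlier results of these data known. Replicates correlated at r between 0.969 and 0.993 and shared 0 identical values. Same-numbered AGN and vehicle NECa did not deviate together (r = -0.039, -0.26 and 0.164), so the numbers were not taken as pairs. Alternatives were quantile scaling, normexp correction, no intensity trend, a filter on dim probes, the mean of a gene's probes, other sample sets, a replicate block and leaving out each array.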

Additional observations from a re-analysis of the deposited data

Results flagged for a closer look

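The effect of the TRAMP background differed between carcinomas and DLP for 3 of the 7 measured members, by a limma interaction test over all 16 arrays. The difference of the effects was 2.07 for Cdkn1a (adjusted p = 0.000883), -1.63 for Ccng1 (adjusted p = 0.00033) and 1.01 for Bbc3 (adjusted p = 0.00183). Each of the 3 kept its call when any one array of the 4 groups was left out, with differences from 1.90 to 2.25 for Cdkn1a, from -1.88 to -1.38 for Ccng1 and from 0.88 to 1.13 for Bbc3. Tissue, dissection and age are not matched between the 2 sets, which cannot be told apart from the group.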

How the results depend on the processing

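Of 838 recomputed values of single members, 796 stayed on their side of the threshold, 23 lost a call, 19 gained one and none reversed, while 52 uncalled values changed sign. Of 4085 recomputed values of called list genes, 3729 kept the call, 356 lost it and none reversed. After normexp correction 12336 probes (3060 higher, 9276 lower) were called in vehicle NECa against wild-type whole prostate, in place of 7378, and 13106 (3186 higher, 9920 lower) in AGN NECa, in place of 7958, with all 7 members called in AGN NECa. That correction shifted the median of all probes by -0.20 and -0.21. Of the called probes in vehicle NECa, 43.1% were higher, against 24.8% after normexp correction. In vehicle DLP against wild type 40.2% were higher, 52.4% with quantile scaling, and in the test of the difference of effects 51.1%, with 34.1% after normexp correction. With the mean of a gene's probes, 3 members were called in vehicle NECa and 0 with age.

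In AGN against vehicle NECa, 10 probes were called, 6 with quantile scaling, 35 without an intensity trend and 0 after normexp correction, above the median level or without vehicle NECa 1 and AGN NECa 2. With the replicate block, 502 probes and no member were called there. The block ended 1 member's call in the other fits, Sesn2 in vehicle NECa (adjusted p = 0.0511), a call that was also lost without an intensity trend (0.0588) and without vehicle NECa 1 and AGN NECa 2 (0.0786). The replicate numbers share only a number, and not every sample's deviation followed its number.

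In vehicle DLP against wild type, 1 member was called without an intensity trend or above the median level and 2 with all TRAMP arrays; 1927 probes were called, 803 with all 16 arrays in the fit and 3202 with all TRAMP arrays. With age, 414 probes were called, 149 without an intensity trend.

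Leaving out single arrays gave 3 to 5 members and 5840 to 8184 probes in vehicle NECa against wild type, and 3 to 5 and 6371 to 9090 in AGN NECa. It gave 0 members and 7 to 72 probes between AGN and vehicle NECa, 0 to 3 and 333 to 2967 in vehicle DLP against wild type, 0 and 0 to 48 for AGN in DLP, and 0 and 0 to 50 for D/DA. It gave 3 to 4 and 6931 to 17003 for vehicle NECa against vehicle DLP, 0 to 1 and 389 to 1074 with age, and 3 and 3689 to 7078 for the difference of effects. Lone arrays were assumed to vary like the others. Signal over background limited Perp and Sesn2 and the dim probes of Bbc3 and Mdm2.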
